A study of Mus musculus with 32 samples.

Results

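Apoe, Fabp4 and 8 further genes of adipogenesis and lipid handling were followed in the mouse stromal line EL08-1D2, which was established from embryonic liver and supports blood cells in culture, grown without or with azacitidine. The 10 genes were taken by name from the 21829 mouse genes of the deposited table: Apoe, Fabp4, Fabp5, Pparg, Lpl, Plin2, Scd1, Scd2, Fasn and Acaca. The drug resembles cytidine, is built into DNA, binds DNA methyltransferases there and so lowers methylation. It is given in myelodysplastic syndromes, and the comparison asks what it does to the stromal cells themselves. Each group held 16 libraries of polyadenylated RNA (n = 16 where no other n stands), the groups differed by the drug alone as far as the labels tell, and its dose and duration are not given in the labels used here. All libraries came from a single cell line, and nothing in the labels says that they came from separate cultures, so the spread behind each p-value may be a technical one.

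Bone marrow stromal cells can turn into fat cells, and the 10 genes cover several steps of that route. PPARγ, encoded by Pparg, is the nuclear receptor that drives fat cell differentiation, and Fabp4 and Lpl are among its best known target genes. Fat is made from acetyl-CoA by acetyl-CoA carboxylase (Acaca) and fatty acid synthase (Fasn), desaturated by the stearoyl-CoA desaturases (Scd1, Scd2), carried in the cytosol by the fatty acid binding proteins (Fabp4, Fabp5), freed from lipoproteins by lipoprotein lipase (Lpl) and stored in droplets coated by perilipin 2 (Plin2). Apoe encodes apolipoprotein E, the ligand by which lipoprotein receptors take up lipoprotein particles, and is made by macrophages and many stromal cells as well as by liver.

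For the drug's known action on DNA methylation the CpG dinucleotides of the promoters are of interest, and the windows before the starts of Apoe, which rose, and of Fasn, which had no call, are shown. RefSeq starts (GRCm38.p6, the assembly also called mm10) were matched for 5 of the 10 genes, Apoe and Pparg with 3 starts each and Plin2, Fasn and Acaca with 1 each. The 250 bases before the most upstream Apoe start (chr7:19699189-19699438, minus strand) and before the Fasn start (chr11:120824548-120824797, minus strand) are written 5′ to 3′ on the strand of the gene, with each CpG in capitals.
Apoe: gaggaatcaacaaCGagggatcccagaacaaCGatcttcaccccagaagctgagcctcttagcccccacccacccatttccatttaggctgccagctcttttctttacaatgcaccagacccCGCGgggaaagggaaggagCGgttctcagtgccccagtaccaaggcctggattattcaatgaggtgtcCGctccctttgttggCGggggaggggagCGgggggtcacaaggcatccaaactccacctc
Fasn: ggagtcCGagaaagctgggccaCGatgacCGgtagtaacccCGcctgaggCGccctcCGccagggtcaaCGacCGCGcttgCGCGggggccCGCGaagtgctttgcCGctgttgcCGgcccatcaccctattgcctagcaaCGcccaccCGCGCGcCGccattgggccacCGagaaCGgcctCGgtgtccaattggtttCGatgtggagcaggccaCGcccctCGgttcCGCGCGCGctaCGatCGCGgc

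The Apoe window held 8 CpGs, and 57.0% of all 32851 RefSeq windows of that length held fewer. The Fasn window held 33 CpGs, more than 96.0% of all windows. The Plin2 window held 6, the median of all windows, and the 3 Pparg windows held 38, 12 and 2. The RefSeq start of Acaca lies within the span of the gene, and its window held 0. The further Apoe starts lie downstream of the first, within the gene, and their windows held 9 and 10. The PPAR response element of the DR1 type, searched as AGGTCA, any base, AGGTCA on both strands, was in none of the 9 windows of these genes and in 0.0335% of all windows. The single element AGGTCA, which is part of that motif, was found once in the Plin2 window and once in each of the first and second Pparg windows, against 14.0% of all windows with at least 1. The sequence TATAAA was found on both strands together 2 times in the second Apoe window and once in the second Pparg window, and 12.4% of all windows held it. These matches describe the letters in these windows only.

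The libraries held between 818619 and 3210801 UMIs (unique molecular identifiers, which count a cDNA molecule once) without and between 1226861 and 5039721 with azacitidine. Both ends of the range were higher with the drug. UMI numbers given for single genes or lists below are not scaled for depth, so part of a rise in them can be depth. Levels below are UMI counts scaled to a common library size, as CPM, and a call is an adjusted p under 0.05 in edgeR's quasi-likelihood test over 9344 genes. Replicate numbers were taken in runs of 4 (numbers 1 to 4, 5 to 8, 9 to 12, and 13 to 16), within which libraries were more alike; the labels give no reason. Across the treatments, libraries with other numbers of the same run had a mean correlation of 0.17 in their deviations from the group means, against -0.06 between runs. Moreover, 5 libraries were set off from the rest, namely untreated numbers 1 and 2 and treated numbers 1, 2 and 4: their scores on the first principal component of these deviations lay between 26.2 and 42.5, and those of the other 27 between -21.4 and 10.4. The 5 libraries held between 2455232 and 5039721 UMIs. Untreated number 10 (2489108) and treated number 7 (4218313) lay in that range without being set off. The part of depth in this was not tested. Because libraries were more alike within runs, values within runs stand beside the pooled ones.

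The labelled cell type was met by its markers. All 10 stromal markers had UMIs, among them Col1a1, Vim and Pdgfrb, and their summed level lay between 9111 and 12209 CPM without and between 6260 and 10536 CPM with azacitidine. The median of that sum was 10615 CPM without and 8065 with the drug. Of 9 tested stromal markers 0 rose and 3 fell, namely the collagen genes Col3a1, from 4460 ± 440 to 2849 ± 411 CPM, Col1a2 and Col1a1 (log2 fold change -0.65, -0.39 and -0.37; edgeR, adjusted p = 6.24e-09, 0.0010 and 0.0014), and 2% of all tested genes fell. None of the 3 was called with spike-in scaling or with sums of runs, and Col1a2 and Col1a1 were not called without numbers 5 to 8. Spike-in scaling called 1 of 9344 genes as lower and sums of runs 3 of 12281. A gene that fell could thus hardly keep its call in these settings. Within numbers 5 to 8, 5 of 8 tested stromal markers fell (3.36% of all tested genes did), and the part of this shift in the results for Apoe and Fabp4 was not tested. Thy1, a surface marker, had 0 UMIs without and 26 with the drug. Of the 8 defining markers of fat cells 5 were in the table. Their summed level ran from 0.87 to 8.97 CPM without and from 2.00 to 5.33 CPM with the drug, Adipoq (adiponectin) had 2 and 1 UMIs in the 16 libraries of each group, Cfd (adipsin) 1 and 0, and Cidec, a droplet protein of mature fat cells, 0 and 2. Retn (resistin) had 30 and 15 UMIs and Lipe, the hormone-sensitive lipase, 68 and 116, and the other 3 were not analysed here.

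Azacitidine raised Apoe and Fabp4, left 7 of the 10 genes without a call, and lowered Acaca with a call close to the threshold. Apoe rose 7.27-fold and Fabp4 2.72-fold, while Fabp5, Pparg, Lpl, Plin2, Scd1, Scd2 and Fasn had fold changes between 0.87 and 1.14. Of the 10 genes 2 were called as higher and 1 as lower, where 3.65% of all tested genes were called as higher and 2% as lower. The genes were chosen with earlier results of these data known, so these counts are no test of lipid genes as a set. All 10 passed the filter on low counts, and their median log2 fold change was 0.02, against 0.00 for all tested genes. Fabp4 passed through its level with the drug. With each group filtered on its own, it was below the filter without azacitidine and above it with azacitidine. In the fit without the filter Fabp4 was called (edgeR, adjusted p = 0.00012), where 3.94% of genes were called. With the ERCC spike-in RNAs as reference the median of all genes moved to 0.31, and Acaca was no longer called. Apoe and Fabp4 kept their calls (log2 fold change 3.31 and 1.76), and the 7 genes without a call again had none. In that setting 1 of 9344 genes was called as lower, so the loss says little about Acaca alone. The spike-in share of UMIs ran from 0.037% (treated number 7) to 0.207% (treated number 8), so this reference varies widely even within a group and run.

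**Figure D1:**
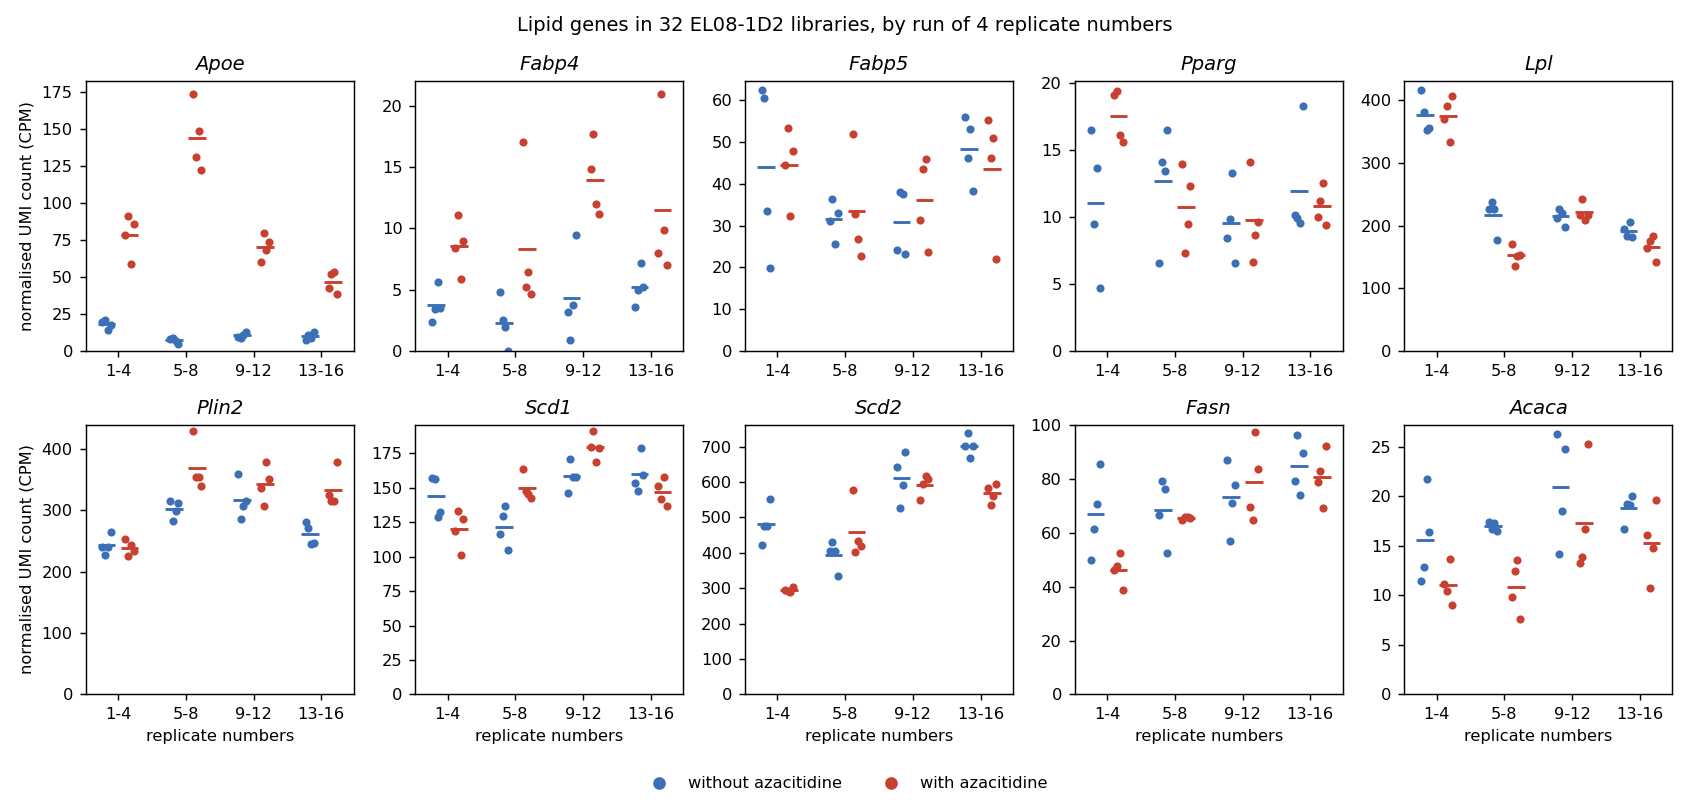
Level of the 10 genes in normalised UMI counts (CPM, axes start at 0), one point per library, by run of 4 replicate numbers, without (blue) and with (red) azacitidine. Short bars are the means of 4 libraries. Apoe sits between 38.4 and 173.8 CPM in all 16 libraries with the drug and between 4.7 and 20.6 CPM in those without it, whereas the groups overlap for the other 9 genes.

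Apoe had the largest response of the 10 genes. Its level ran from 4.7 to 20.6 CPM without azacitidine (median 10.2) and from 38.4 to 173.8 CPM with it (median 76.0). Every library with the drug was above every library without it, a separation seen in 0.278% of tested genes. The means were 11.5 ± 4.6 (SD) and 84.8 ± 39.4 CPM, and the log2 fold change was 2.86 (SE 0.22; edgeR quasi-likelihood test with Benjamini-Hochberg adjustment, adjusted p = 1.27e-11). In UMIs, not scaled for depth, the difference was from 320 in the 16 libraries without to 3385 in the 16 with the drug. Apoe lies on chromosome 7, 19696109 to 19699188, minus strand (ENSMUSG00000002985, mm10). Because these are bulk samples, more cells that express Apoe and more Apoe RNA per cell cannot be told apart.

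The size of the Apoe response was not the same in the 4 runs. In numbers 5 to 8 the libraries without azacitidine were the lowest, at 4.7 to 9.0 CPM, and those with it the highest, at 122.3 to 173.8 CPM, and the log2 fold change within that run was 4.30 (n = 4 per group). In numbers 1 to 4 the ranges were 14.3 to 20.6 and 58.6 to 91.1 CPM, with a log2 fold change of 2.10. Numbers 9 to 12 gave 9.0 to 13.1 and 60.2 to 79.6 CPM (2.74), and numbers 13 to 16 gave 7.7 to 13.0 and 38.4 to 53.2 CPM (2.24). The ranges did not overlap in any run, and edgeR called Apoe in each of the 4, with adjusted p between 3.8e-17 and 1.7e-05. The share of tested genes called as higher within a run was 1.96%, 3.25%, 1.04% and 2.26%, and ranges that did not overlap in that direction were seen in 5.66%, 5.9%, 3.52% and 4.6%. The interaction of run and azacitidine was called for Apoe (edgeR F test, adjusted p = 9.95e-07; 3.02% of all tested genes were called), though not with spike-in scaling (adjusted p = 0.27). With the libraries of a run and group summed, 4 sums against 4, Apoe was called (edgeR, adjusted p = 0.0097; 0.879% of genes were called), and with run as a further term in that fit it was not (adjusted p = 0.092; 3.26% were), at a log2 fold change of 2.81.

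By order of level, the 4 runs with azacitidine stood at 143.9 ± 22.7 CPM (numbers 5 to 8), 78.4 ± 14.2 (1 to 4), 70.3 ± 8.3 (9 to 12) and 46.5 ± 7.1 (13 to 16; mean ± SD, n = 4 each). The second and the third overlap in their ranges, and the others do not overlap with their neighbours in this order. Without the drug the order was 18.0 ± 2.8 (1 to 4), 10.7 ± 1.9 (9 to 12), 10.2 ± 2.3 (13 to 16) and 7.1 ± 1.8 CPM (5 to 8), where numbers 1 to 4 stand above and the other neighbours overlap. The run with the highest Apoe level in untreated cells was thus not the one with the highest level under the drug.

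Of the apolipoprotein genes beside Apoe, Apoc1 was called. Apoc1, whose product modulates lipoprotein metabolism, lies 3449 bases downstream and had 168 UMIs without and 406 with azacitidine. It rose 1.73-fold, from 5.8 ± 3.4 to 10.4 ± 3.6 CPM (edgeR, adjusted p = 0.025). Apoc1 was no longer called without numbers 1 to 4, 9 to 12 or 13 to 16, with sums of runs or after thinning to the smallest library. Apoc4 and Apoc2, the activator of lipoprotein lipase, were below the filter on counts, with 17 and 39 UMIs without and 13 and 52 with the drug. Tomm40, a mitochondrial import gene 2125 bases away on the other side, was not called (log2 fold change 0.07, SE 0.09; edgeR, adjusted p = 0.77). Of the 6 neighbours tested within 100 kb of Apoe 1, namely Apoc1, was called as higher and 0 as lower. Among all tested genes 3.65% were called as higher and 2% as lower.

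Fabp4, the adipocyte fatty acid binding protein, was scarce in the cells and rose with the drug. Its level ran from 0 to 9.5 CPM without azacitidine (median 3.6) and from 4.7 to 21.0 CPM with it (median 9.4). The groups overlap, but each of the 16 libraries with the drug lay above the median of those without it, and 8 lay above all of them. The means were 3.9 ± 2.3 and 10.6 ± 4.8 CPM, and the log2 fold change was 1.44 (SE 0.26; edgeR, adjusted p = 0.00016). These values rest on 100 UMIs without and 381 with azacitidine, with 0 to 13 and 8 to 47 UMIs per library. The library at 0, number 8 without the drug, could hold up to 2.36 CPM, the level that 3 UMIs would have there, by counting error alone.

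Fabp4 lay higher with the drug in each run. Within runs the log2 fold change was 1.32 (numbers 1 to 4), 1.85 (9 to 12) and 1.20 (13 to 16), and the interaction was not called (edgeR, adjusted p = 0.91). In numbers 5 to 8 Fabp4 was below the filter on counts, and the fit without that filter gave 1.69 (SE 0.39). With edgeR the adjusted p within runs was 0.045, 0.023 and 0.061 for the runs that passed the filter, so numbers 13 to 16 gave no call. Fabp4 was called with the sums of runs, with a run term (adjusted p = 0.022 and 0.00018) and with spike-in scaling (2.59e-09; 3.8% of genes were called).

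Fabp5, the epidermal fatty acid binding protein that is also found in macrophages and fat cells, is coded by the same gene cluster on chromosome 3 and had no call. It ran from 19.9 to 62.5 CPM without (median 37.1) and from 21.9 to 55.4 CPM with azacitidine (median 44.1). The groups cover the same range. The fold change was 1.01 with a 95% interval of 0.81 to 1.24 (edgeR, adjusted p = 1.00), and 9 of 16 libraries with the drug lay above the untreated median. Other members of that cluster were near silence: Fabp9, a testis member, had 0 UMIs without and 16 with azacitidine and was called in a fit of all genes without the filter on counts (edgeR, adjusted p = 0.0086), in which 3.94% of genes were called, while Pmp2, a myelin member, had 20 and 8 and Fabp12 had 1 and 0. Of 7 tested genes in the list of fatty acid and retinoid binding and transport 1 rose and 0 fell, with a median of 0.08. The gene was Crabp2, which delivers retinoic acid to its receptor, from 22.5 ± 6.3 to 46.2 ± 10.7 CPM, with a fitted change of 1.04 on the log2 scale (edgeR, adjusted p = 2.49e-07), and of between 0.69 and 1.63 in the runs.

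Pparg itself, the receptor upstream of Fabp4 and Lpl in fat cells, was low and had no call. It ran from 4.7 to 18.3 CPM without (median 10.0) and from 6.6 to 19.4 CPM with azacitidine (median 11.8). The fold change was 1.10 with a 95% interval of 0.89 to 1.37 (edgeR, adjusted p = 0.73). In numbers 1 to 4 the 4 libraries with the drug, at 15.6 to 19.4 CPM, overlapped the top of those without, at 4.7 to 16.5 CPM, and the log2 fold change of 0.54 there was not called (edgeR, adjusted p = 0.30). In the other runs it was -0.24, -0.06 and -0.06. Without numbers 1 to 4 the pooled value turned to -0.11.

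**Figure D2:**
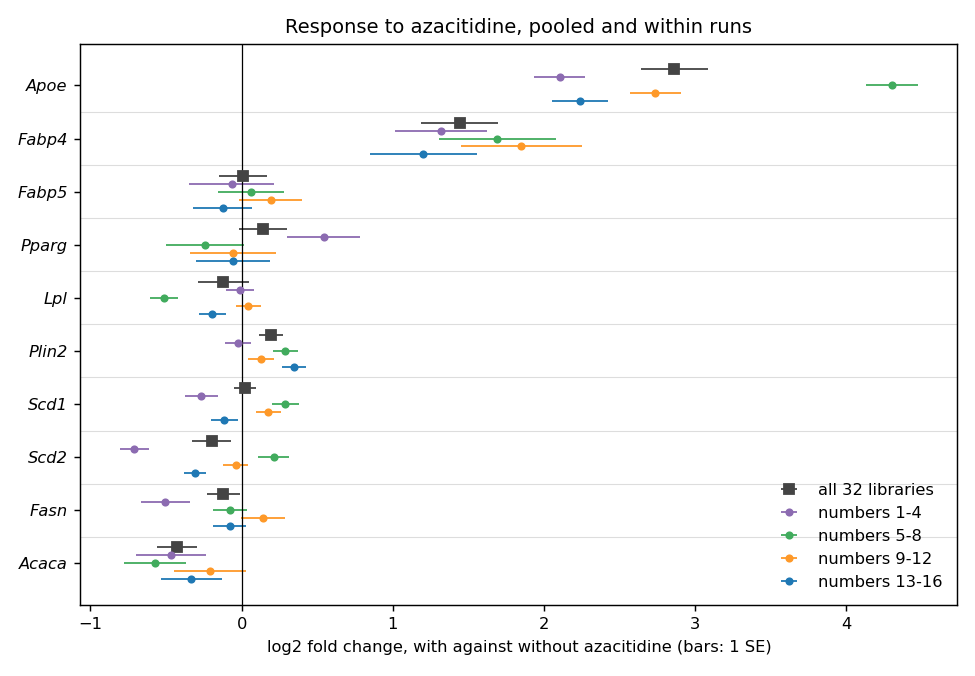
Log2 fold change of each gene, with against without azacitidine, over all 32 libraries (squares, 16 against 16) and within the 4 runs of replicate numbers (circles, 4 against 4). Bars are 1 SE from edgeR. Apoe and Fabp4 lie to the right of 0 in every run, Acaca lies to the left in every run, and Scd2 ranges from -0.71 to 0.21.

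Lpl, the lipase that frees fatty acids from lipoproteins at the cell surface, differed among runs in both groups. It ran from 177.6 to 416.9 CPM without (median 224.0) and from 135.2 to 406.5 CPM with azacitidine (median 196.1). In numbers 1 to 4 the level was 376.9 ± 29.7 without and 375.5 ± 31.4 CPM with the drug, above every library of the other runs, which held between 135.2 and 242.8 CPM. The difference among runs was called in both groups (edgeR F test over the 4 runs, adjusted p = 2.33e-07 without and 1.13e-12 with azacitidine), where 8.93% and 49.7% of tested genes were called. With spike-in scaling the call held without azacitidine (adjusted p = 0.037) and not with it (0.16). The pooled fold change of Lpl on azacitidine was 0.92 with a 95% interval of 0.73 to 1.16 (edgeR, adjusted p = 0.79). In numbers 5 to 8 the 4 libraries with the drug, at 135.2 to 170.7 CPM, were below the 4 without, at 177.6 to 237.6 CPM, and Lpl fell there by 0.52 on the log2 scale (edgeR, adjusted p = 0.00036; 3.36% of genes were called as lower there, and 5.69% did not overlap in that direction). In the other runs the log2 fold change was -0.01, 0.05 and -0.19, without a call. The interaction was called (edgeR, adjusted p = 0.017), though not with spike-in scaling (adjusted p = 0.73) or after thinning to equal depth (0.48).

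Plin2, the droplet coat protein found in most cells that store lipid, ran from 226.6 to 358.5 CPM without (median 281.6) and from 225.2 to 429.0 CPM with azacitidine (median 330.4). Of the 16 libraries with the drug 12 lay above the untreated median. The log2 fold change of 0.19 (SE 0.08) had an unadjusted p of 0.017 and an adjusted p of 0.16 (edgeR). With the runs as a term Plin2 was called (adjusted p = 0.0062; 6.03% of genes were called as higher in that fit), and with sums of runs and a run term it was not (adjusted p = 0.16). Within runs it was called in numbers 5 to 8, at 281.8 to 314.6 CPM without and 339.5 to 429.0 with the drug, and in numbers 13 to 16, at 245.5 to 281.3 and 314.8 to 378.1 CPM (edgeR, adjusted p = 0.030 and 0.010). In these runs the ranges did not overlap, as for 5.9% and 4.6% of tested genes in that direction. In numbers 1 to 4 it was level, at 226.6 to 263.6 and 225.2 to 252.3 CPM. The interaction was not called (edgeR, adjusted p = 0.21).

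The stearoyl-CoA desaturases Scd1 and Scd2, which put the first double bond into saturated fatty acids, are neighbours on chromosome 19 with similar sequences, so the authors' counting could split reads between them. Scd1 ran from 104.5 to 178.6 CPM without (median 150.8) and from 101.6 to 191.4 CPM with azacitidine (median 146.4). Its fold change was 1.02 with a 95% interval of 0.92 to 1.13 (edgeR, adjusted p = 0.94). Scd2 ran from 335.6 to 740.0 CPM without (median 540.0) and from 288.5 to 617.4 CPM with the drug (median 541.8). Its fold change was 0.87 with a 95% interval of 0.73 to 1.04 (adjusted p = 0.48).

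The response of Scd2 and Scd1 differed among runs. In numbers 1 to 4 Scd2 was between 422.2 and 553.0 CPM without and between 288.5 and 304.1 with azacitidine, and fell by 0.71 on the log2 scale (edgeR, adjusted p = 0.00094). In numbers 13 to 16 it was between 667.9 and 740.0 CPM without and between 534.6 and 594.1 with the drug, and fell by 0.31 (adjusted p = 0.011). The ranges did not overlap in either of these runs, as for 4.93% and 4.83% of tested genes in that direction, and 0.544% and 1.66% were called as lower. In numbers 5 to 8 the log2 fold change was 0.21 and in numbers 9 to 12 -0.04, without a call. Scd1 lay at -0.27, 0.29, 0.18 and -0.11 in the 4 runs, each without a call (lowest adjusted p = 0.056, numbers 5 to 8). The interaction was called for Scd2 (edgeR, adjusted p = 4.35e-05) and for Scd1 (0.015), for neither with spike-in scaling (0.73 and 0.79) and not for Scd1 without numbers 1 to 4 (0.14). Of the other desaturase genes of the cluster Scd3 had 44 UMIs without and 66 with azacitidine and Scd4 had 4 and 15, and both were below the filter on counts.

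Fasn and Acaca encode the successive enzymes of fatty acid synthesis. Fasn ran from 50.1 to 96.2 CPM without (median 75.1) and from 38.6 to 97.3 CPM with azacitidine (median 66.0), with a fold change of 0.92 and a 95% interval of 0.79 to 1.07 (edgeR, adjusted p = 0.64). In numbers 1 to 4 it lay at 66.9 ± 15.0 and 46.3 ± 5.8 CPM, with a log2 fold change of -0.51 without a call (adjusted p = 0.16). Acaca ran from 11.4 to 26.3 CPM without (median 17.3) and from 7.6 to 25.2 CPM with the drug (median 13.4). The groups overlap, and 14 of 16 libraries with azacitidine were below the untreated median. Acaca fell by 0.43 on the log2 scale (SE 0.13; edgeR, adjusted p = 0.045), from 18.1 ± 3.9 to 13.6 ± 4.4 CPM, and lay between -0.57 and -0.21 in the 4 runs without a call in any. The call was lost with library totals (adjusted p = 0.077), without numbers 1 to 4 (0.085) and with spike-in scaling, where the log2 fold change was -0.09 (0.73). With spike-in scaling 0.0107% of tested genes were called as lower.

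Across 10 lists of other lipid and fat cell genes 145 genes were tested, of which 4.83% were called as higher and 1.38% as lower, near the 3.65% and 2% of all tested genes. Regulators of fat cell differentiation gave few calls. Of 28 listed symbols other than Pparg, among which Prdm3 is another name of Mecom, 16 were tested. Of these 0 rose and 1 fell, and the median log2 fold change was 0.04. The one was Mecom, a zinc finger transcription factor, from 29.1 ± 5.6 to 19.4 ± 5.7 CPM (edgeR, adjusted p = 0.0014), though not with spike-in scaling, sums of runs or thinning. In these settings 0.0107%, 0.0244% and 0.618% of genes were called as lower. Cebpb and Cebpd, which act early in adipogenesis, stood at 39.1 and 49.2 CPM without and at 35.0 and 51.0 CPM with the drug (edgeR, adjusted p = 0.46 and 0.98). Cebpa, the late partner of PPARγ, had 1 and 3 UMIs in all. Of 10 tested genes that restrain adipogenesis none passed in edgeR, DESeq2 or limma-voom (0 calls each); before adjustment 2 had p below 0.05 in edgeR, and the median was 0.05.

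Of 6 tested genes of mature fat cells 2 rose and 0 fell, with a median of 0.09. Sncg, γ-synuclein, which is abundant in fat and in peripheral neurons, rose from 72.4 ± 12.3 to 158.0 ± 25.0 CPM, with a fitted change of 1.12 on the log2 scale (edgeR, adjusted p = 3.05e-13), and of between 0.95 and 1.36 in the runs. Agpat2, an acyltransferase of triglyceride synthesis, rose 1.22-fold (adjusted p = 0.041) and lost its call when any 1 of the 4 runs was left out, with DESeq2 and with spike-in scaling. Agpat2 was also the single call among 16 tested droplet genes, whose median was -0.03. Below the filter on counts, Bscl2, which encodes seipin, a protein of droplet formation, had 68 UMIs without and 333 with azacitidine, a log2 fold change of 1.70 in the fit without the filter (edgeR, adjusted p = 1.56e-07).

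Among 23 further tested genes of fatty acid synthesis 1 rose and 0 fell, with a median of 0.00. It was Me1, malic enzyme, which supplies NADPH, from 13.0 ± 1.9 to 18.5 ± 3.7 CPM (edgeR, adjusted p = 0.00045), a call lost with sums of runs and after thinning to the smallest library. Srebf1, the transcription factor that governs Fasn, Acaca and Scd1, stood at 81.4 and 82.5 CPM (adjusted p = 0.95), and Acly, which makes cytosolic acetyl-CoA, at 170.0 and 160.2 CPM (adjusted p = 0.79). Of 25 tested genes of sterol synthesis and uptake none passed in edgeR, DESeq2 or limma-voom (0 calls each), and before adjustment 1 had p below 0.05 in edgeR. Their median of -0.15 was the lowest of the lipid lists, and within runs it was -0.41 (numbers 1 to 4), 0.04, 0.04 and -0.22. Without numbers 1 to 4 it was -0.07. With run as a term 6 of the 25 were called as lower, where 4.6% of all tested genes were, and the sums of runs with a run term gave 0 calls, with 3 at p below 0.05 before adjustment. Of 24 tested genes of fatty acid oxidation and PPAR targets 0 rose and 1 fell, with a median of -0.03. That one was Cpt1a, the gatekeeper of fatty acid entry into mitochondria, which fell from 52.9 ± 3.9 to 45.2 ± 6.8 CPM (edgeR, adjusted p = 0.025). Cpt1a lost its call without numbers 1 to 4, 5 to 8 or 9 to 12. It was also lost with spike-in scaling, where 0.0107% of genes were called as lower. Angptl4, a PPAR target and inhibitor of lipoprotein lipase, stood at 127.1 and 122.0 CPM (adjusted p = 0.88). Of 8 tested partners of lipoprotein lipase there were 0 calls by these 3 tools, and 1 gene had p below 0.05 before adjustment in edgeR; the median was -0.05.

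Of 15 tested genes of apolipoproteins, lipoprotein receptors and LXR targets 3 rose and 0 fell, with a median of -0.02. Beside Apoc1 these were Clu, clusterin or apolipoprotein J, from 245.8 ± 66.5 to 445.1 ± 66.5 CPM (edgeR, adjusted p = 4.44e-07), and Apod, apolipoprotein D, from 14.6 ± 5.0 to 50.9 ± 49.3 CPM (adjusted p = 0.0023). The log2 fold change of Clu within runs was 0.48 to 1.31. Apod lay at 2.86, -0.13, 0.45 and 1.81 and lost its call without numbers 1 to 4 and with limma-voom. With sums of runs neither Clu nor Apod was called. Abca1, the sterol exporter and classical LXR target, stood at 5.3 and 5.7 CPM (edgeR, adjusted p = 0.86), and Lrp1, a receptor for apolipoprotein E, at 73.3 and 63.5 CPM (adjusted p = 0.22).

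**Figure D3:**
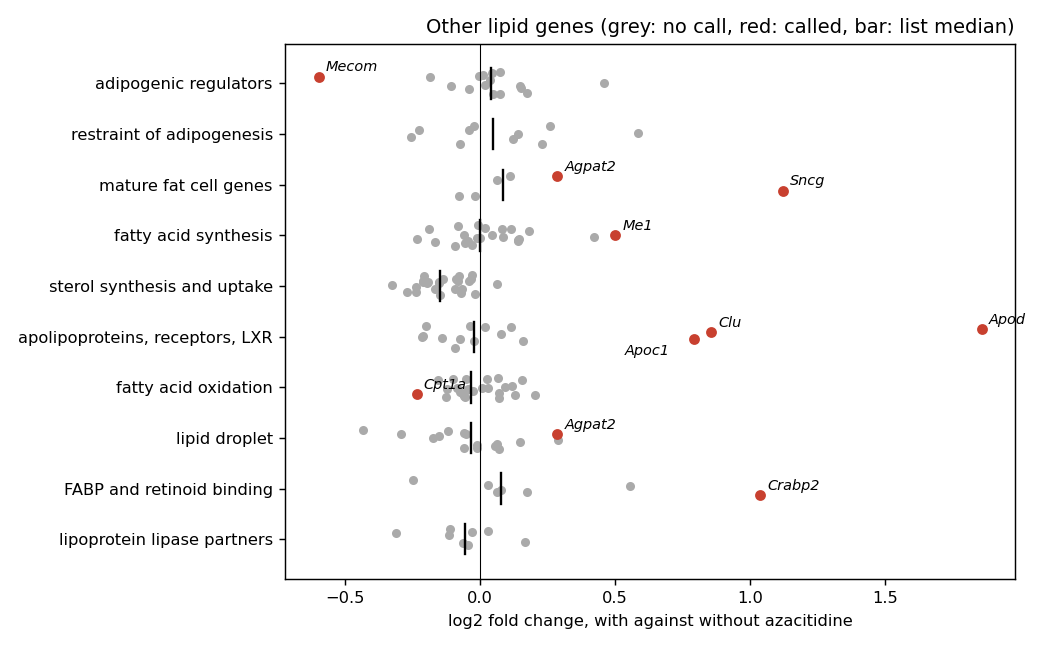
Log2 fold change of the tested genes in 10 lists of lipid and fat cell biology, without the 10 genes of the main account, one point per gene. Red points are called by edgeR (adjusted p under 0.05), grey points are not, and black bars are list medians. Of 145 different genes 7 (4.83%) were called as higher and 2 (1.38%) as lower, against 3.65% and 2% of all tested genes, and the list medians lie between -0.15 and 0.09.

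Macrophages and endothelial cells express Apoe, Fabp4 and Fabp5, and their markers were measured in the same libraries. Of 14 macrophage markers 9 were in the table, with a summed level from 16.7 to 38.7 CPM without (median 23.1) and from 26.7 to 52.6 CPM with azacitidine (median 38.8). Cd68 and Cd14 rose, by 0.99 and 0.70 on the log2 scale (edgeR, adjusted p = 3.04e-05 and 0.0028), where 3.65% of all tested genes were called as higher. Fcer1g had 4 and 65 UMIs. Of the other listed markers Ptprc had 1 and 4, Adgre1 0 and 1, Mrc1 1 and 9, Lyz2 14 and 12 and Csf1r 26 and 45 UMIs in the 16 libraries of each group. Itgam, also in the table, is not given here. The 9 markers together had 634 UMIs without and 1443 with azacitidine. Of 10 endothelial markers 7 were in the table, with a summed level from 6.0 to 11.6 and from 6.8 to 16.4 CPM (medians 8.6 and 10.4). Most of their 230 and 396 UMIs belonged to Egfl7, with 195 and 316, which was the one tested marker and had no call (log2 fold change 0.23; edgeR, adjusted p = 0.45), and to Flt1, with 27 and 42. Emcn had 1 and 18, Pecam1 2 and 6, Cdh5 1 and 8, Vwf 4 and 4 and Tek 0 and 2 UMIs. Without the filter on counts Emcn was called as higher (edgeR, adjusted p = 0.010), as were 3.29% of all genes in that fit. The median log2 fold change of the 7 was 0.69, against 0.05 for all genes there. The part of these markers in the results was not tested. Of 10 hepatocyte markers 4 were in the table, with 8 and 42 UMIs together, of which Afp, the fetal liver protein, had 3 and 26.

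The genes most like Apoe were sought over the 8 sums of a run and a group, by the root mean square distance between centred log2 profiles, among 9344 genes. A small constant was added to CPM before the log, which dampens changes from low levels. The nearest were Gtsf1 (0.40), a piRNA pathway factor, Rhox2h (0.45), a homeobox gene of the reproductive tract, Casp1 (0.49), the inflammasome caspase, Sohlh2 (0.55), a germ cell transcription factor, and Psmb8 (0.59), an immunoproteasome subunit, where Apoe's own profile had a root mean square of 1.47. Their fitted log2 fold changes were 4.22, 4.67, 3.80, 3.81 and 2.32, against 2.86 for Apoe. Nearness here is thus not an equal response. The nearest to Fabp4, whose own profile had 0.72, were Sncg (0.23), Cd53 (0.31), the noncoding RNA Lncenc1 (0.33), Clu (0.34) and Wwc1 (0.38). Their fitted log2 fold changes lay between 0.86 and 1.12, against 1.44 for Fabp4. Of the 10 genes themselves none was among the nearest of Apoe or Fabp4.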

How the data were processed

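Polyadenylated RNA of 32 libraries was measured, and groups and replicate numbers were read from the sample titles. Per the labels' protocols, RNA was isolated with a column kit and cDNA was barcoded, pooled and amplified with UMIs. The build mm10 and the tools STAR 2.4.0 and bedtools 2.17.0 are listed in the submitters' processing notes; UMI collapsing, annotation and strand use are not given in the sources used here. The deposited values are whole UMI counts per gene, not normalized; 68 spike-in rows with 0.106% of UMIs were kept out of library sizes and tests. Symbols and positions came from GENCODE M21, and 21506 of 21829 genes matched. No pair of libraries within a group agreed within sampling noise (lowest chi-square per degree of freedom 1.11).

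The main test was edgeR 4.0.16 (robust quasi-likelihood, TMM, default expression filter by group, two-sided, Benjamini-Hochberg over all 9344 tested genes); 12485 genes were removed. DESeq2 1.42.0, limma 3.58.1 (voom), R 4.3.3, Python 3.11.15, pandas 2.3.3, numpy 2.4.6 and matplotlib 3.10.9 were used. Standard errors were derived from fold changes and F statistics. The fit was tested on simulated counts. Promoter letters come from RefSeq (GRCm38.p6). Genes and lists were chosen with earlier results of these data known. Named beside the 10 genes were the called genes of each list, at most 4 with the smallest p, and the nearest profiles; neighbours, regulators without a call, markers and low-count genes were chosen after their values were seen, as were the leaving out of single runs, the test among runs and the alternatives of the interaction.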

Additional observations from a re-analysis of the deposited data

Results flagged for a closer look

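The response to azacitidine differed among the 4 runs of replicate numbers for 4 of the 10 genes by edgeR's test of the interaction. They were Apoe (adjusted p = 9.95e-07), with log2 fold changes of 2.10, 4.30, 2.74 and 2.24, Scd2 (4.35e-05), with -0.71, 0.21, -0.04 and -0.31, Scd1 (0.0148), with -0.27, 0.29, 0.18 and -0.11, and Lpl (0.0172), with -0.01, -0.52, 0.05 and -0.19. Among all tested genes 3.02% were called. With spike-in scaling none of the 4 was called (adjusted p between 0.27 and 0.79), and 21 genes were called in all (0.225%). What sets the runs apart is not given in the labels and was not tested.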

How the results depend on the processing

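The 528 called genes became 897 with the replicate block, 860 with no filter, 160 after thinning, 993 with run as a term, 108 with sums of runs, 322 without run 4 (numbers 13 to 16) and 296 at an adjusted p under 0.01; the interaction calls went from 282 to 21 with spike-in scaling, 687 with no filter and 100 after thinning, and the 9 calls in the lipid lists to 19 with the replicate block. Fabp4 was called under each of the 14 alternatives that tested it (log2 fold change 1.32 to 1.76) and fell below the filter after thinning, without the 5 libraries that stood apart and without run 4. Apoe lay between 2.33 and 3.31 and lost its call only with sums and a run term (2.81). Acaca lost it with library totals (-0.42), no filter (-0.42), thinning (-0.41), sums of runs (-0.38), sums with a run term (-0.38), spike-ins (-0.089), without numbers 1 to 4 (-0.39), without run 2 (-0.36) or run 4 (-0.46), and at 0.01 (-0.43). Plin2 gained a call with the replicate block (0.18), run as a term (0.19), without numbers 1 to 4 (0.25) and without the 5 libraries (0.25), but not with sums of runs (0.20) or sums with a run term (0.19). Without a call in the settings named here, the sign turned for Lpl (0.19), Scd2 (0.14) and Fasn (0.22) with spike-ins, for Pparg without numbers 1 to 4 (-0.11) or the 5 libraries (-0.032), for Scd1 after thinning (-0.11) and without run 2 (-0.050) or run 3 (-0.036), and for Fabp5 after thinning (-0.071), with run as a term (-0.0016), sums (-0.034), sums with a run term (-0.025) and without run 3 (-0.051). The cause was not tested. Replicate numbers were not taken as pairs: 12 of 16 same-numbered pairs correlated above 0.1 and 4 of 16 untreated libraries correlated best with their own number. Depth limits Fabp4 most, with at most 47 UMIs per library.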
